A study of Mus musculus with 24 samples.

Results

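The 9 genes described here mark tendon and the myotendinous junction, the site where a muscle fibre is anchored to its tendon: Scx, Tnmd, Mkx, Fmod, Thbs4, Comp, Col22a1, Col12a1 and Cilp. They were chosen by name, and all 9 were found by symbol among 54752 Ensembl gene IDs counted by RNA sequencing in mouse gastrocnemius, the large calf muscle that ends in the Achilles tendon. The 24 libraries form 8 groups of 3. Every mouse carried floxed alleles of both Numb and Numb-like, written Numb(f/f)/NumbL(f/f), which encode endocytic adaptor proteins known as inhibitors of Notch. The 12 transgene mice carried HSA-MCM besides these alleles: the human skeletal actin promoter drives MerCreMer, a Cre recombinase that tamoxifen switches on. The groups were female and male transgene mice given tamoxifen (the conditional knockout) or vehicle, and female and male Numb(f/f)/NumbL(f/f) mice without the transgene, called flox mice below, given tamoxifen or vehicle. The recombinase is driven in muscle fibres, so the floxed alleles of tendon cells, fibroblasts and other cells in the muscle are not its target. The sources used here give no age, dose or interval after tamoxifen. The 3 male transgene vehicle libraries are called vehicle controls in their titles and tamoxifen in their treatment field. They were grouped by title, and each male comparison that uses them rests on that choice. The titles of the flox males read WT, although the genotype field gives the floxed alleles. Transgene and flox females stand in separate tables. Genotype and table therefore cannot be told apart there: genotypes were compared directly within males alone, and in females only the tamoxifen responses, each taken within its own table, were set against each other. The males share a table, but the titles number transgene and flox males in separate ranges. The labels do not say whether these males were raised or sampled together. Genotype and any such difference cannot be told apart in the male genotype comparisons below.

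Tendon is built by tenocytes, fibroblasts that lay down parallel fibres of type I collagen. The transcription factors scleraxis (Scx) and Mohawk (Mkx) direct their differentiation, and tenomodulin (Tnmd), a membrane glycoprotein of mature tenocytes, lies downstream of scleraxis. Fibromodulin, thrombospondin 4 and cartilage oligomeric matrix protein bind and organise collagen fibrils. At the junction, collagen XXII (Col22a1) is deposited at the tips of muscle fibres, so it is made on the muscle side, while collagen XII (Col12a1) coats fibrils on the connective tissue side. Cartilage intermediate layer protein (Cilp) is a matrix protein of cartilage and tendon known to bind TGF-beta. Scleraxis is a basic helix-loop-helix factor, and factors of that family bind E-boxes, short DNA motifs with the letters CANNTG.

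RefSeq promoter sequence (GRCm38.p6) is given for 4 of the 9 genes. Promoters of the other genes, among them some that varied with Fmod, Thbs4 and Tnmd, were left out of this description. The 100 bases before the start that RefSeq annotates are shown for these 4, because Fmod, Thbs4 and Tnmd varied together between libraries while Cilp followed another pattern, as described further on. Each is written 5′ to 3′ on the gene's strand, with any E-box in capitals.
Cilp: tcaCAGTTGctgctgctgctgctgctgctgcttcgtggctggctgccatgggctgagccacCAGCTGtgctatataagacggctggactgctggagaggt
Fmod: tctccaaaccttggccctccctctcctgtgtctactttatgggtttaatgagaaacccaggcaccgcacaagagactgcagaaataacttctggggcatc
Thbs4: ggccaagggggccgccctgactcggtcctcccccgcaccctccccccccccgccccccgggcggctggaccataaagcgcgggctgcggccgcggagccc
Tnmd: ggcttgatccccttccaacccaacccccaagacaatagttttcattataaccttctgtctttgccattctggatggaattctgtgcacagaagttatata
The windows are chr9:65265080-65265179 on the plus strand for Cilp, chr1:134037154-134037253 on the plus strand for Fmod, chr13:92794819-92794918 on the minus strand for Thbs4 and chrX:133850908-133851007 on the plus strand for Tnmd. RefSeq starts Tnmd further into the gene than the GENCODE annotation used for gene positions below, so the end of that window lies inside the GENCODE gene. The Cilp window held 2 E-boxes, CAGTTG with its first base at position -97 and CAGCTG at position -39, counted back from the start. The Fmod, Thbs4 and Tnmd windows held 0 such motifs. Since CANNTG reads the same on both strands, 1 search covers both. Of 32851 promoters of the same length in the table, 34.4% held at least 1 E-box and 7.55% held 2 or more. A match is a string of letters and not a measured binding site.

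Library totals ran between 31219445 and 39142101 counted reads in transgene females, between 36099031 and 43014516 in flox females and between 21516819 and 29982077 in males. Levels below are CPM, the reads of a gene as parts per 1e6 of the library, scaled over all 24 libraries by the trimmed mean of M-values, and levels of different genes are set side by side per kilobase of exon. Numb was counted at 18.6 to 19.0 CPM in transgene tamoxifen females, against 20.7 to 23.3 CPM in vehicle, and at 17.5 to 20.4 CPM in transgene tamoxifen males, against 18.1 to 20.6 CPM in vehicle. Flox mice gave 17.3 to 19.8 CPM with tamoxifen against 20.9 to 25.1 CPM with vehicle in females, and 15.7 to 16.5 CPM against 17.2 to 20.1 CPM in males. Numbl lay between 2.67 and 6.50 CPM in all libraries. Counts over a whole gene include exons outside the floxed stretch, so they do not check the deletion. Flrt1, picked after its values were seen as a gene that separates the treatments, was at 168 to 285 CPM in transgene tamoxifen males and at 3.26 to 3.81 CPM in the 3 male libraries with conflicting labels. Because it was picked from these values, it is no independent check of those labels. Muscle fibre RNA dominated every library: Ckm, Acta1 and Myh4 had median levels of 17541, 33069 and 70687 CPM. The cartilage marker Matn1 had no count in any library and Acan none in 20 of 24, and the bone markers Ibsp and Sp7 had none in 20 and 16. No pair of libraries of 1 group agreed within sampling noise, with chi-square per degree of freedom between 9.22 and 117 over 24 pairs.

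All 9 genes passed the low-count filter in every comparison. Per kilobase of exon, Thbs4 and Fmod were highest, with median levels over the 24 libraries of 14.9 and 14.6 CPM per kilobase. Cilp followed at 4.43, Col22a1 at 3.75, Scx at 2.48, Tnmd at 1.51 and Comp at 1.46 CPM per kilobase. Col12a1, at 0.207, and Mkx, at 0.105, were lowest, and the ranges of neighbouring genes in that order overlapped. Mkx rested on 3 to 34 reads a library and Tnmd on 19 to 190, so their values are less precise than those of Fmod, with 478 to 3245 reads, and Thbs4, with 592 to 2541. In bulk muscle RNA, fewer tendon cells in the piece sampled and less RNA per tendon cell cannot be told apart.

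**Figure D1:**
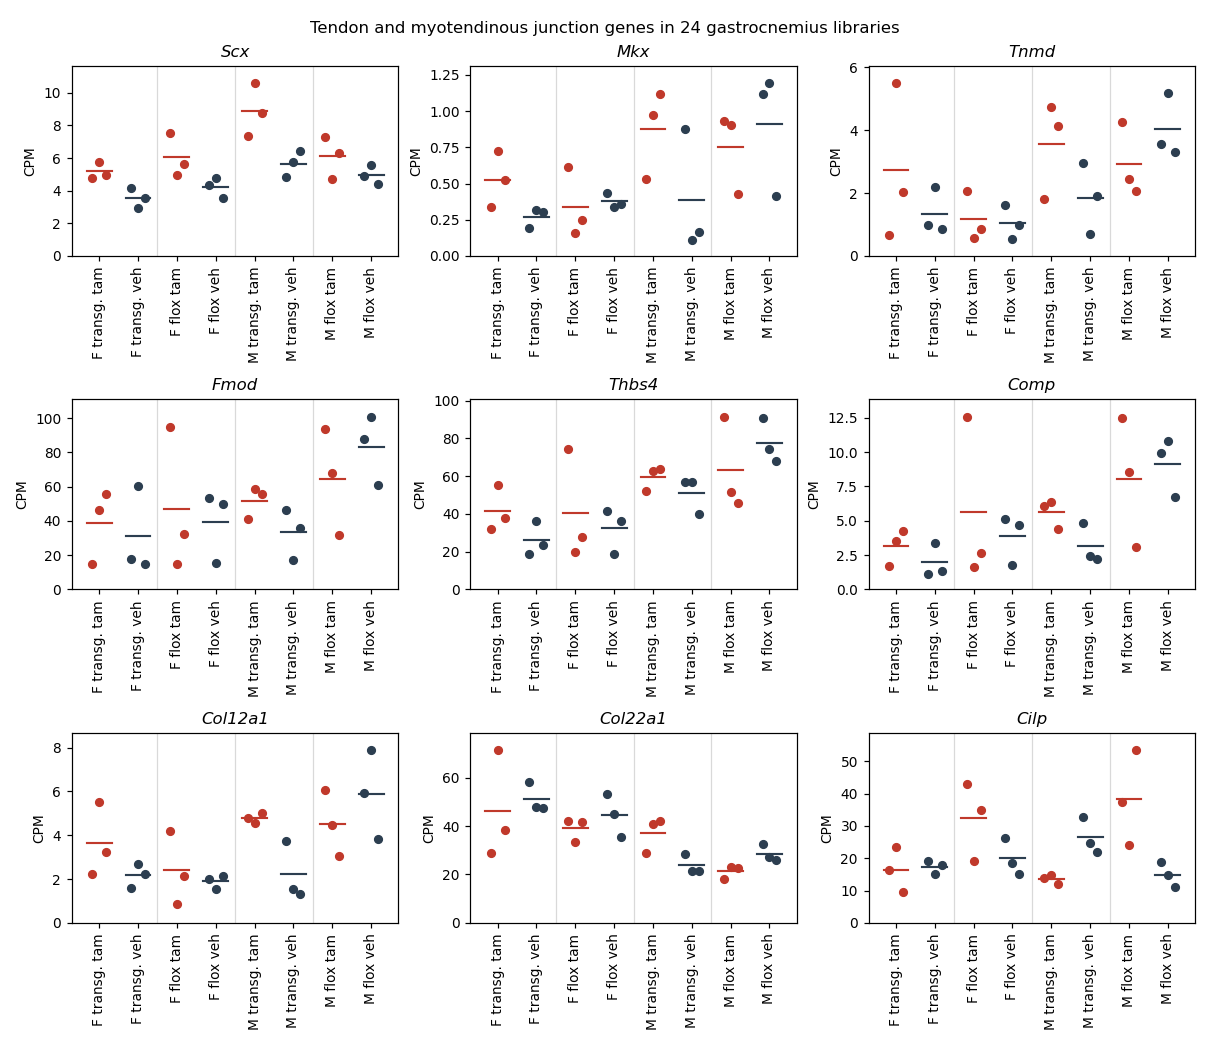
Level of each gene in every library, in CPM, 1 panel a gene, with the 8 groups of 3 on the x axis, tamoxifen left of vehicle; points are libraries and horizontal lines group means. Scx sits above vehicle with tamoxifen in most groups, Cilp moves in opposite ways in transgene and flox males, and Fmod, Tnmd and Comp scatter widely within groups.

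Scx was the 1 gene of the 9 whose averaged change with tamoxifen over the whole series passed an adjusted p of 0.05 (edgeR). The gene lies at chr15:76457452-76459458 on the plus strand (GRCm38). In transgene females it was at 4.78, 5.78 and 4.97 CPM with tamoxifen, against 4.17, 2.97 and 3.54 CPM with vehicle. In flox females it was at 7.56, 4.98 and 5.61 CPM with tamoxifen, against 4.33, 4.79 and 3.53 CPM with vehicle. In both female genotypes, and again in transgene males, every tamoxifen library was above every vehicle library. Transgene males had 7.34, 10.6 and 8.75 CPM with tamoxifen, against 4.84, 5.73 and 6.41 CPM with vehicle. Flox males had 7.29, 4.74 and 6.33 CPM with tamoxifen, against 4.88, 5.54 and 4.41 CPM with vehicle, and there the groups overlapped. The log2 changes were 0.56 ± 0.16 (SE, as for all changes below) in females and 0.66 ± 0.19 in males with the transgene, and 0.52 ± 0.19 in females and 0.30 ± 0.19 in males without it. None of the 4 passed the threshold alone in edgeR's quasi-likelihood test, with adjusted p = 0.141, 0.156, 0.477 and 0.451 in that order after Benjamini-Hochberg adjustment over all genes tested. Averaged over the 4 strata (each sex with and without the transgene), the log2 change of Scx was 0.50 ± 0.10 (adjusted p = 0.00143), a 1.42-fold higher level with tamoxifen. In that averaged comparison 8.83% of 16670 genes passed an adjusted p of 0.05 in either direction, and 1 of the 9 did. The averaged changes of Comp, Col12a1, Mkx and Tnmd were 0.46, 0.45, 0.40 and 0.40. Those of Cilp, Thbs4, Fmod and Col22a1 were 0.25, 0.22, 0.21 and -0.03. None of these passed, and each of these genes varied more within groups than Scx did, as given below. The Scx change stayed past the threshold in all 31 alternatives run, with a log2 change between 0.45 and 0.54 and an adjusted p of at most 0.0136. It was 0.45 without the transgene males, whose vehicle labels conflict. The transgene and flox responses of Scx were not shown to differ: the difference was 0.36 ± 0.26 in males (adjusted p = 0.764) and 0.04 ± 0.26 in females (adjusted p = 0.986).

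By group mean, Scx was highest in transgene tamoxifen males at 8.89 ± 1.63 CPM (SD, n = 3, as for all group means), followed by flox tamoxifen males at 6.12 ± 1.29, flox tamoxifen females at 6.05 ± 1.34 and transgene vehicle males at 5.66 ± 0.79 CPM. Transgene tamoxifen females came next at 5.18 ± 0.53, then flox vehicle males at 4.95 ± 0.57, flox vehicle females at 4.22 ± 0.64 and transgene vehicle females at 3.56 ± 0.60 CPM. The libraries of the first and second group in this order did not overlap, and those of every later pair of neighbours did. Sex and, in females, genotype go with the table, so group means of different tables were not tested against each other. Within groups, Scx varied like an average gene: its SD of log2 CPM was 0.239, against a median of 0.234 over 16670 genes.

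Mkx (chr18:6934518-7004780, minus strand), the other transcription factor, was near the limit of detection. Its exons share 201 bases with another gene on the same strand, AC148004.2. Transgene females had 0.335, 0.723 and 0.521 CPM with tamoxifen, against 0.193, 0.318 and 0.303 CPM with vehicle, and the groups did not overlap. The log2 change was 0.94 ± 0.40 (edgeR, adjusted p = 0.285). Transgene males had 0.532, 0.974 and 1.12 CPM with tamoxifen, against 0.877, 0.109 and 0.165 CPM with vehicle, a change of 1.15 ± 0.65 (adjusted p = 0.617). Flox females had 0.613, 0.161 and 0.249 CPM with tamoxifen, against 0.436, 0.336 and 0.358 CPM with vehicle, and flox males had 0.932, 0.902 and 0.427 CPM with tamoxifen, against 1.12, 1.19 and 0.414 CPM with vehicle. In flox mice the Mkx changes were -0.17 ± 0.48 in females and -0.31 ± 0.61 in males, smaller than their errors.

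Tnmd (chrX:133850980-133865577, plus strand) had the widest spread inside a group. In transgene females it was at 0.669, 5.49 and 2.03 CPM with tamoxifen, against 0.995, 2.20 and 0.848 CPM with vehicle, so that the second tamoxifen library held 8.21 times the level of the first. In flox females it was at 2.07, 0.563 and 0.848 CPM with tamoxifen, against 1.61, 0.532 and 0.998 CPM with vehicle. Neither pair of female groups was separated. In transgene males it was at 1.81, 4.74 and 4.13 CPM with tamoxifen, against 2.95, 0.689 and 1.90 CPM with vehicle. In flox males it was at 4.25, 2.44 and 2.07 CPM with tamoxifen, against 3.56, 5.19 and 3.31 CPM with vehicle. Both pairs of male groups overlapped. The 4 log2 changes ran between -0.48 and 1.004 and none passed the threshold. By group mean, Tnmd was 4.02 ± 1.02 CPM in flox vehicle males, the highest, and 1.05 ± 0.54 CPM in flox vehicle females, the lowest. These groups stand in separate tables and were not tested against each other.

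The 3 fibril-binding matrix genes moved with Tnmd and Mkx from library to library. Fmod (chr1:134037254-134048277, plus strand) was at 94.7, 14.8 and 32.1 CPM in flox females with tamoxifen, against 53.5, 15.7 and 49.7 CPM with vehicle. Its highest tamoxifen library there held 6.38 times its lowest. Transgene females had 15.03, 46.1 and 55.6 CPM of Fmod with tamoxifen, against 17.8, 60.7 and 14.6 CPM with vehicle. Comp (chr8:70373558-70382066, plus strand) was at 12.6, 1.66 and 2.67 CPM in flox females with tamoxifen, against 5.15, 1.79 and 4.68 CPM with vehicle, and the first tamoxifen library was again the highest. Transgene females had 1.72, 3.499 and 4.28 CPM of Comp with tamoxifen, against 1.16, 3.39 and 1.33 CPM with vehicle. The log2 changes in flox females were 0.52 for Comp and 0.25 for Fmod, and without that library they were -0.83 and -0.75. Thbs4 (chr13:92751590-92794818, minus strand) was at 32.1, 55.2 and 38.1 CPM in transgene females with tamoxifen, against 19.0, 36.3 and 23.7 CPM with vehicle. Its groups overlapped there, with a log2 change of 0.68 ± 0.31 (adjusted p = 0.358). In flox females Thbs4 was at 74.2, 19.8 and 27.6 CPM with tamoxifen, against 41.8, 19.0 and 36.5 CPM with vehicle. Over the 4 strata the averaged responses were 0.21 ± 0.35 for Fmod, 0.22 ± 0.21 for Thbs4 and 0.46 ± 0.34 for Comp, and none passed the threshold.

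The within-group spread was wide for 6 of the 9 genes. The SD of log2 CPM within groups was 0.898 for Fmod, 0.866 for Tnmd, 0.844 for Comp, 0.705 for Mkx, 0.610 for Col12a1 and 0.521 for Thbs4. In the same order, these SDs stood at percentiles 98.4, 98.2, 98.0, 95.6, 92.2 and 86.2 among 16670 genes. The percentiles are over genes of all levels, and counting noise was not taken out. That noise is larger for Mkx (3 to 34 reads a library) and Tnmd (19 to 190) than for Fmod (478 to 3245). Cilp followed at 0.442 (percentile 78.4) and Col22a1 at 0.318 (percentile 62.6), with Scx near the median. Across the 24 libraries, with each group's mean removed, the 6 genes Tnmd, Mkx, Fmod, Thbs4, Comp and Col12a1 had pairwise Pearson correlations between 0.59 and 0.92, with a median of 0.77 over 15 pairs. These 6 were picked out after their values were seen, and genes counted in 1 library share its dissection, RNA and depth, so the correlations are a description. The strongest pair was Fmod with Comp. Pairs with Scx had a median correlation of 0.24, pairs with Col22a1 0.38 and pairs with Cilp 0.38.

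The libraries at the extremes of their groups were often shared, which in genes picked for their covariation is a description. The first flox tamoxifen female was the highest of its group in all 6 genes, and the second was the lowest in all 6. Among flox tamoxifen males the first library was highest and the third lowest in all 6. The second transgene vehicle female was the highest in all 6, and the first transgene tamoxifen female, the second flox vehicle female and the third flox vehicle male were the lowest of their groups in all 6. The sum of 12 other tenocyte markers is weighted towards its most abundant genes. Median levels were 26.5 CPM for Tppp3, 13.8 CPM for Fibin and 7.60 CPM for Angptl7. Chad, Cilp2 and Prg4, also in the sum, had medians of 4.68, 2.48 and 4.96 CPM. The sum was also highest in the first flox tamoxifen female, at 106 CPM against 68.0 and 70.0 CPM in the others of its group. It was likewise highest in the first flox tamoxifen male, at 132 CPM, and lowest in the third, at 79.0 CPM. In vehicle groups it did not always follow the 6 genes: the third flox vehicle male, lowest in all 6, had the highest sum of its group at 123 CPM, and the second flox vehicle female, also lowest in all 6, had the highest of its group at 69.0 CPM. In the transgene females it did follow, at 80.1 CPM, the highest of its group, in the second vehicle female and at 57.9 CPM, the lowest, in the first tamoxifen female.

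**Figure D2:**
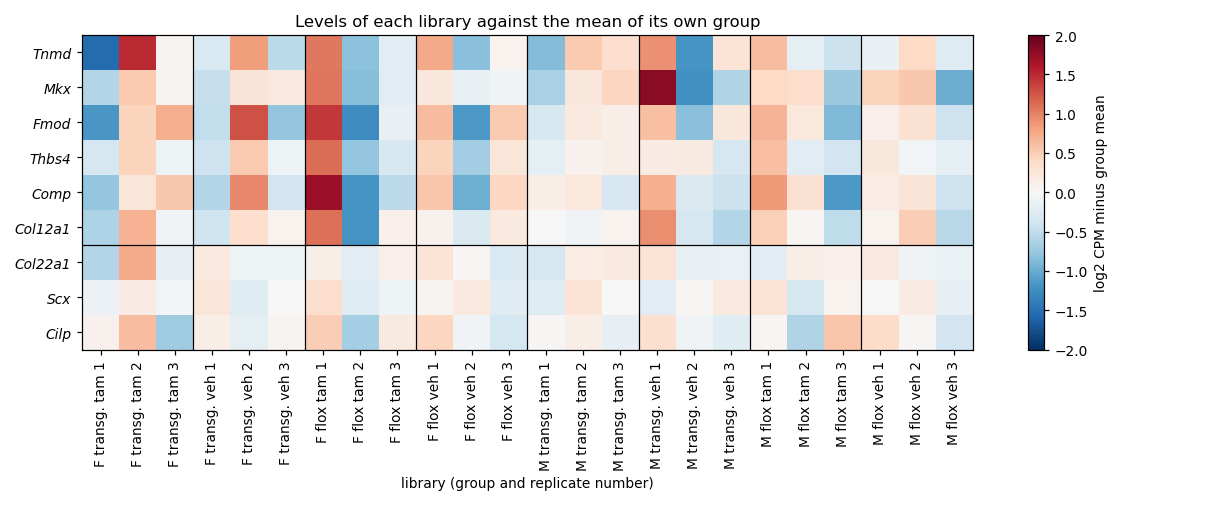
Heat map of log2 CPM minus the mean of the library's own group, with 24 libraries across and the 9 genes down, on a colour scale cut at -2 and 2. The 6 genes above the line (Tnmd, Mkx, Fmod, Thbs4, Comp, Col12a1) share high and low libraries, with pairwise correlations between 0.59 and 0.92, while Col22a1, Scx and Cilp below it follow them less.

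Col12a1 (chr9:79598991-79718831, minus strand) was higher with tamoxifen in every library of transgene males, without passing the threshold. It was at 4.79, 4.57 and 5.03 CPM with tamoxifen, against 3.75, 1.56 and 1.32 CPM with vehicle, a log2 change of 1.11 ± 0.39 (edgeR, adjusted p = 0.324). In flox males it was at 6.08, 4.47 and 3.05 CPM with tamoxifen, against 5.92, 7.90 and 3.82 CPM with vehicle, a change of -0.39 ± 0.37 (adjusted p = 0.643). The difference between these responses was 1.498 ± 0.54 (adjusted p = 0.483). Transgene females had 2.22, 5.52 and 3.24 CPM with tamoxifen, against 1.61, 2.68 and 2.21 CPM with vehicle, and flox females had 4.20, 0.857 and 2.12 CPM with tamoxifen, against 1.99, 1.54 and 2.15 CPM with vehicle. The female groups overlapped in both genotypes.

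Col22a1, the collagen made by the fibre itself, passed the threshold in no tamoxifen response in the main edgeR fits. In transgene males that lack of a call held in 17 of 20 alternatives, and Col22a1 passed in the others. Its treatment groups did not overlap in either male genotype. The gene spans chr15:71795795-72034227 on the minus strand, and 16 exon bases overlap the antisense gene Gm16308, whose reads cannot be told apart without a strand setting. Transgene males had 29.0, 40.8 and 41.9 CPM with tamoxifen, against 28.6, 21.3 and 21.4 CPM with vehicle. Flox males had 18.2, 23.1 and 22.6 CPM with tamoxifen, against 32.6, 27.2 and 25.9 CPM with vehicle. The tamoxifen libraries were all above vehicle in transgene males and all below vehicle in flox males. The log2 change was 0.65 ± 0.16 in transgene males (edgeR, adjusted p = 0.101) and -0.43 ± 0.16 in flox males (adjusted p = 0.193). The difference between these responses was 1.08 ± 0.23, ranked 30th by p of 15628 genes, with an adjusted p of 0.236. In that comparison 2 genes passed, 0.0128% of those tested, and 0 of the 9, of which 3 had an unadjusted p under 0.05, beside 8.25%. DESeq2 put the Col22a1 difference past the threshold (adjusted p = 0.0109), as did edgeR with no low-count filter (adjusted p = 0.0394). Those fits called 79 and 38 genes, against 2 in the main fit.

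Between tamoxifen-treated males, Col22a1 was higher in transgene than in flox mice by 0.80 ± 0.16 on the log2 scale, 1.74-fold (edgeR, adjusted p = 0.0159), with no overlap. In that comparison 5.23% of 15628 genes passed and 27.7% had groups that did not overlap, and of the 9 genes, 2 passed and 3 did not overlap. The Col22a1 call was lost when transgene tamoxifen library 2 or 3, or flox tamoxifen library 1 or 3, was left out, with adjusted p between 0.0520 and 0.0658. The summed level of 7 slow-fibre genes varied widely here, and the groups overlapped. It was at 2411, 796 and 123 CPM in transgene tamoxifen males, against 2911, 2961 and 2328 CPM in flox tamoxifen males. With that sum as a covariate, an alternative added after the data were seen, the Col22a1 difference was 0.66 ± 0.19 (adjusted p = 0.0818). In females Col22a1 was at 28.7, 71.5 and 38.4 CPM in transgene mice with tamoxifen, against 58.3, 48.1 and 47.6 CPM with vehicle. It was at 42.2, 33.5 and 41.6 CPM in flox females with tamoxifen, against 53.3, 45.0 and 35.6 CPM with vehicle. Both pairs overlapped, and the averaged response over 4 strata was -0.03 ± 0.13. The 4 highest group means of Col22a1 were those of the 4 female groups, from 51.3 ± 6.0 CPM in transgene vehicle females to 39.1 ± 4.9 CPM in flox tamoxifen females. Flox tamoxifen males were lowest at 21.3 ± 2.7 CPM. Females and males were counted in separate tables, so no test was made between the sexes.

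Cilp (chr9:65265180-65280605, plus strand) gave the largest male contrast of the 9. Transgene males had 13.9, 14.9 and 12.1 CPM with tamoxifen, against 32.6, 24.7 and 22.01 CPM with vehicle. Flox males had 37.5, 24.1 and 53.5 CPM with tamoxifen, against 18.7, 14.7 and 11.1 CPM with vehicle. The groups were apart in both genotypes, in opposite directions. In flox males Cilp rose by 1.36 ± 0.28 on the log2 scale, 2.57-fold (edgeR, adjusted p = 0.0313), and was the 1 gene of the 9 to pass, beside 2.89% of 15628 genes tested. That call was lost in 9 of 20 alternatives, among them no low-count filter and leaving out any flox vehicle library or flox tamoxifen library 1 or 3, with an adjusted p of up to 0.0960. In transgene males the change was -0.96 ± 0.28 (adjusted p = 0.206). The difference between the responses was -2.32 ± 0.40, ranked 10th by p of 15628 genes, with an adjusted p of 0.19. It was past the threshold in DESeq2 (adjusted p = 1.03e-06) and when the second flox tamoxifen male was left out (adjusted p = 0.0254).

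With tamoxifen, Cilp was lower in transgene than in flox males by -1.497 ± 0.28 on the log2 scale (edgeR, adjusted p = 0.0157). That call was lost without the third transgene tamoxifen male (adjusted p = 0.0666) and with the slow-fibre sum as a covariate (-1.40 ± 0.37, adjusted p = 0.0770). With vehicle, the order was the other way: Cilp was higher in transgene than in flox males by 0.82 ± 0.28, without overlap (adjusted p = 0.18). The vehicle and tamoxifen comparisons use different libraries, but the vehicle one rests on the 3 libraries with conflicting labels. Transgene females had 16.3, 23.4 and 9.39 CPM of Cilp with tamoxifen, against 19.0, 15.2 and 18.02 CPM with vehicle (-0.07 ± 0.32, adjusted p = 0.938). Flox females had 42.97, 19.2 and 34.9 CPM with tamoxifen, against 26.2, 18.4 and 15.2 CPM with vehicle (0.69 ± 0.37, adjusted p = 0.681). The female difference of responses was -0.77 ± 0.53 (adjusted p = 0.823). In that comparison 0% of 15182 genes passed in edgeR, with 7.54% and 0 of the 9 at an unadjusted p under 0.05, and DESeq2 passed 45 genes and limma-voom 0. By group mean, Cilp was highest in flox tamoxifen males at 38.4 ± 14.7 CPM and flox tamoxifen females at 32.4 ± 12.1 CPM, and lowest in transgene tamoxifen males at 13.6 ± 1.4 CPM. The females stand in a separate table and were not tested against the males.

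**Figure D3:**
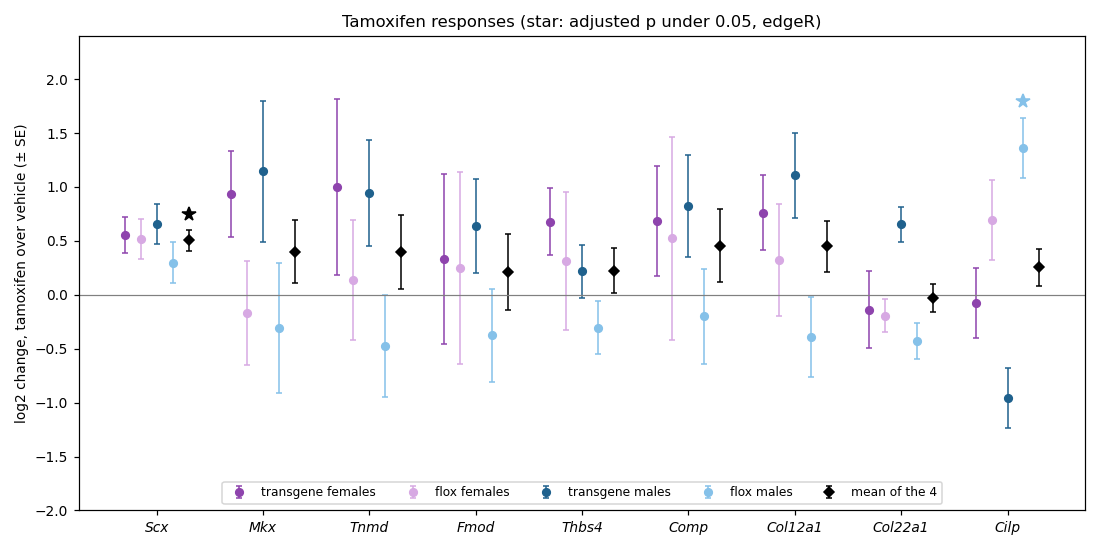
Log2 change of each gene with tamoxifen against vehicle, with its SE, in the 4 strata and for their mean; stars mark an adjusted p under 0.05. The stars stand at Scx in the mean (0.50) and at Cilp in flox males (1.36), and 8 of the 9 genes, all but Scx, have opposite signs in transgene and flox males.

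The counts in single strata were as follows. In transgene females 0 of 9 genes passed, beside 1.32% of 14211 tested, and 2 (Scx and Mkx) did not overlap, beside 22.6%. The unadjusted p was under 0.05 for 2 of 9, beside 16.8%, and 0 of 9 passed in DESeq2 or limma-voom. In flox females 0 of 9 passed, beside 0.131% of 14539 tested, 1 (Scx) had an unadjusted p under 0.05, beside 8.65%, 1 (Scx) did not overlap, beside 14.5%, and 0 of 9 passed in DESeq2 or limma-voom. In transgene males 0 of 9 passed in the main edgeR fit, beside 0.889% of 15628. There 4 had an unadjusted p under 0.05, beside 10.1%, and 4 did not overlap, beside 13.8%. DESeq2 put Col22a1 and Cilp past the threshold in that stratum, where it called 328 genes, against 139 in edgeR. In flox males 2 did not overlap, beside 27.8%. Of the 9 log2 changes, 7 were above 0 in females with the transgene (52.3% of all tested genes) and 7 in those without (50.5%). In males 8 were above 0 with the transgene (51.3%) and 2 without (49.1%). In that order, the medians of the 9 were 0.68, 0.32, 0.66 and -0.31, beside medians of all tested genes of 0.01, 0.00, 0.01 and -0.01. Tnmd, Mkx, Fmod, Thbs4, Comp and Col12a1 covary between libraries, so these counts and medians do not rest on 9 separate observations.

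Between the genotypes of vehicle-treated males no gene of the 9 passed the threshold, and 7 of the 9 log2 differences were below 0, beside 52.3% of all genes. The share that passed over all 15628 genes was 0.947%, and 6 of 9 had an unadjusted p under 0.05, beside 17.2%. Comp was at 4.84, 2.43 and 2.19 CPM in transgene vehicle males, against 9.95, 10.8 and 6.71 CPM in flox vehicle males. Fmod was at 46.6, 17.3 and 36.1 CPM in transgene vehicle males, against 87.6, 101 and 61.0 CPM in flox vehicle males. Thbs4 was at 56.7, 57.1 and 40.2 CPM in transgene vehicle males, against 90.7, 74.4 and 68.0 CPM in flox vehicle males. Each of these 3 was lower in every transgene library than in every flox library, as were Tnmd and Col12a1. The log2 differences were -1.54 ± 0.47 for Comp (edgeR, adjusted p = 0.141), -1.41 ± 0.39 for Col12a1 (adjusted p = 0.111), -1.33 ± 0.44 for Fmod (adjusted p = 0.183), -1.14 ± 0.49 for Tnmd (adjusted p = 0.266) and -0.61 ± 0.25 for Thbs4 (adjusted p = 0.248). Mkx was also lower, by -1.23 ± 0.65 (adjusted p = 0.358), with overlap. Of the 9, 5 were separated downwards, beside 12% of all genes, and 1, Cilp, upwards, beside 10.6%. The 5 covary between libraries, so the counts in this comparison do not rest on separate observations. DESeq2 put Comp, Col12a1 and Cilp past the threshold, with adjusted p of 0.0117, 0.0117 and 0.0405. It called 601 genes in this comparison, against 148 in edgeR. In edgeR Col12a1 passed when the first transgene vehicle male was left out (adjusted p = 0.0294).

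Other measures were also apart between these groups. The sum of the tenocyte markers, as given above, is weighted towards Tppp3, Fibin and Angptl7. It was at 87.1, 65.1 and 54.3 CPM in transgene vehicle males, against 108, 110 and 123 CPM in flox vehicle males. With that sum as a covariate, an alternative added after the data were seen, the difference was -0.49 ± 0.51 for Comp, -0.57 ± 0.42 for Col12a1 and -0.65 ± 0.61 for Fmod. Since the sum was itself apart between the genotypes, this fit cannot tell the sum from genotype. The part of tendon cell content in the differences was therefore not tested. The blood markers (Hba-a1, Hbb-bs, Alas2) summed to 285 to 352 CPM in transgene vehicle males, against 517 to 949 CPM in flox vehicle males. The adipocyte markers summed to 1.81 to 5.93 CPM in transgene vehicle males, against 11.5 to 23.2 CPM in flox vehicle males. The part of blood and fat in the values of the tendon genes was not tested. Under tamoxifen the male groups overlapped. Fmod was at 41.1, 58.6 and 55.6 CPM in transgene tamoxifen males, against 93.6, 68.0 and 31.7 CPM in flox tamoxifen males. Comp was at 6.07, 6.39 and 4.39 CPM in transgene tamoxifen males, against 12.5, 8.54 and 3.12 CPM in flox tamoxifen males. Thbs4 was at 52.0, 62.7 and 63.98 CPM in transgene tamoxifen males, against 91.6, 51.7 and 46.0 CPM in flox tamoxifen males. In each case the third flox library was the lowest of all 6 and the first the highest. The 6 covarying genes differed by -0.51 to 0.28 on the log2 scale, all with overlapping groups and adjusted p of 0.569 or more.

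Lists of further tendon genes were counted against the same test over all genes. Genes of 1 list may vary together between libraries, so counts of directions do not rest on separate observations. Of 12 other tenocyte markers none passed in any comparison. All 12 had a log2 difference below 0 in transgene against flox vehicle males, beside 52.3% of all genes, with a median of -0.85. With tamoxifen 10 of 12 were above 0 in transgene males (median 0.88), beside 51.3% of all genes, and 4 of 12 in flox males (median -0.15), beside 49.1%. Of 9 collagen genes of tendon fibrils, 8 were above 0 with tamoxifen in transgene males (median 0.36) and 1 in flox males (median -0.34), and none passed in either stratum. Between tamoxifen males, where 5.23% of all genes passed, 1 of the 9 did, Col5a2, a chain of the type V collagen that sets fibril diameter, which was higher in transgene mice by 0.82 ± 0.18 (edgeR, adjusted p = 0.0192). In the averaged tamoxifen response, where 8.83% of all genes passed, 2 of these 9 passed: Col11a2 rose by 0.42 ± 0.11 (adjusted p = 0.0133) and Col24a1 fell by 0.45 ± 0.12 (adjusted p = 0.0253).

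Among 12 genes of collagen processing and cross-linking, 2 passed in flox males, beside 2.89% of all genes, and 3 in the averaged response, beside 8.83%. Both prolyl hydroxylase subunits P4ha1 and P4ha2, which modify procollagen so that its helix is stable, fell with tamoxifen. P4ha1 fell by 1.24 ± 0.26 in flox males (edgeR, adjusted p = 0.0356) and by 0.63 ± 0.12 in the averaged response (adjusted p = 0.00194). P4ha2 fell by 0.83 ± 0.19 in flox males (adjusted p = 0.0419) and by 0.46 ± 0.08 in the averaged response (adjusted p = 0.000811). Adamts2, the protease that trims procollagen ends, rose by 0.47 ± 0.11 in the averaged response (adjusted p = 0.00811). Loxl1, a cross-linking oxidase, was higher in transgene than in flox tamoxifen males by 0.67 ± 0.16 (edgeR, adjusted p = 0.0297). All 12 of this list were above 0 in that comparison, beside 48.3% of all genes, with a median of 0.32.

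Of 6 further transcription factors used in tendon, Eya1, a co-activator of homeodomain factors, was the 1 to pass in the averaged response. It fell by 0.38 ± 0.06 (edgeR, adjusted p = 0.000413). Of the 6, 3 were above 0, beside 50.2% of all genes. Of 8 small leucine-rich proteoglycans besides Fmod, Omd rose in the averaged response by 0.74 ± 0.19 (edgeR, adjusted p = 0.0165), at levels under 2 CPM. In transgene males 8 of 8 were above 0 with tamoxifen (median 0.39), beside 51.3% of all genes. Of the 3 other thrombospondins none passed in any comparison. Of 16 genes of the muscle side of the junction, none passed in a tamoxifen response. Between tamoxifen males 3 of the 16 passed, beside 5.23% of all genes, and all 3 were higher in transgene mice: Map3k7cl by 1.08 ± 0.19 (adjusted p = 0.00900), the adhesion protein vinculin (Vcl) by 0.47 ± 0.10 (adjusted p = 0.0205) and dystroglycan (Dag1), which ties the fibre to its basement membrane, by 0.38 ± 0.10 (adjusted p = 0.0429). Of 16 growth factor signalling genes 14 were tested. Among them Tgfb2, a TGF-beta ligand, was higher in transgene than in flox males both with vehicle (0.52 ± 0.09, edgeR, adjusted p = 0.0217) and with tamoxifen (0.84 ± 0.09, adjusted p = 0.000660).

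The genes most like each member in library-to-library variation were drawn from 11232 genes by the correlation of group-centred log2 CPM over 24 libraries. Tnmd was most like Kera (0.93), the gene of the proteoglycan keratocan, and next Ptgis and Col11a1. Fmod was most like Chad (0.93), which encodes chondroadherin, a collagen-binding matrix protein, then Cilp2 and Ptgis. Comp was also most like Chad (0.90), then Serpinf1 and Fbln1. Mkx was most like Tnc (0.86), the gene of tenascin C, then Lox and Ptgis, and Col12a1 like Itgbl1 (0.86), Ptgis and Lox. Thbs4 was most like Prg4 (0.82), which encodes the lubricant lubricin, then Chad and Alas2, a gene of red cell haem synthesis. Scx was most like Mr1 (0.83), Ccdc146 and Scn3b, Col22a1 like Fam78b (0.79), Whrn and Ckap4, and Cilp like Cpne2 (0.80), Limd2 and Fgf6. Chad, Cilp2, Kera, Prg4, Tnc, Lox and Col11a1 are known from tendon or cartilage matrix. None of the 9 genes named for Scx, Col22a1 and Cilp stood in any of the tendon lists.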

How the data were processed

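RNA was extracted from gastrocnemius with Trizol and Qiagen columns, per the labels' protocols. The authors deposited 3 tables of raw read counts, as whole numbers, with Ensembl gene IDs. STAR, featureCounts and limma, with GRCm38 and mm10, are named in the submitters' processing notes without versions. The strand setting and the handling of multi-mapping reads are not given in these sources. Symbols and positions came from the GENCODE M21 annotation of GRCm38.

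Each comparison was fitted with edgeR 4.0.16 in R 4.3.3: 1 mean per group, TMM scaling, filterByExpr with a minimum count of 10 and a minimum total of 15, and a robust quasi-likelihood test with Benjamini-Hochberg adjustment over all genes tested (threshold 0.05). Transgene females and flox females were fitted as 6 libraries each, males as 12, the female difference of responses as 12 and the averaged response as 24. CPM per library used TMM over 24 libraries, while log2 changes came from each comparison's fit. The SE is the size of the log2 change divided by the square root of F. Groups came from titles and genotypes. The labels do not say that each library came from a separate mouse, so a p-value here measures library-to-library spread. Alternatives were RLE scaling, DESeq2 1.42.0, limma-voom (limma 3.58.1), no filter, other sets of libraries in the fit, each library left out, the replicate number as a block in flox females, and 2 covariates. Scripts were tested on simulated data.

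The 9 genes and the gene lists were chosen with earlier results of these data known. The 9 were always named, from each list at most 4 genes past the threshold in a comparison, and for likeness the 3 genes with the highest correlation.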

Additional observations from a re-analysis of the deposited data

Results flagged for a closer look

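The male difference of tamoxifen responses was flagged for Cilp and for Col22a1, because every tamoxifen library lay on one side of vehicle in transgene males and on the opposite side in flox males. Of all 15628 genes tested, 13.8% had groups that did not overlap in transgene males and 27.8% in flox males. The share of genes apart in opposite directions was not counted. For Cilp the transgene response minus the flox response was -2.32 on the log2 scale (edgeR quasi-likelihood interaction, adjusted p = 0.19). For Col22a1 it was 1.08 (adjusted p = 0.236). Neither passed the threshold, and both rest on the 3 transgene vehicle males whose treatment field conflicts with their titles.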

How the results depend on the processing

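The Scx rise in the averaged tamoxifen response was past the threshold under all 31 alternatives. Cilp in flox males and in tamoxifen males, and Col22a1 in tamoxifen males, lost their calls under the settings given beside them above, and the cause was not tested. Depth limits Mkx and Tnmd most.

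Counts of genes past the threshold moved with the tool and filter. In the order transgene females, flox females, transgene males and flox males, the tamoxifen response called 679, 145, 328 and 871 genes with DESeq2, against 187, 19, 139 and 452 in edgeR. With no low-count filter it called 941, 329 and 221 in the first 3, and with all 24 libraries in 1 fit 360, 4, 236 and 848. limma-voom called 10 in flox females. With only the 6 libraries compared, transgene males gave 27 and flox males 917 calls. Transgene against flox vehicle males gave 148 calls, 601 with DESeq2 and 327 with no filter, and tamoxifen males gave 817 calls and 1312 with DESeq2. The male difference of responses gave 2 calls, 79 with DESeq2, 38 with no filter and 0 with limma-voom. The female difference gave 0 calls, 1 with RLE scaling, 45 with DESeq2 and 20 with no filter. With the tenocyte sum as a covariate, transgene males gave 39, vehicle males 21 and the male difference 1 call. With the slow-fibre sum, transgene males gave 244, flox males 847 and the male difference 4 calls.

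Leaving out each library in turn gave 37 to 215 calls in transgene females, 3 to 87 in flox females, 68 to 151 in transgene males, 143 to 644 in flox males, 44 to 204 between vehicle males, 280 to 997 between tamoxifen males, 2 to 8 and 0 to 2 for the male and female differences and 1153 to 1456 for the averaged response.

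Changes that missed the threshold switched sign when a library was left out. In transgene females the log2 change then ran from -0.013 to 1.57 for Tnmd, -0.013 to 1.28 for Fmod, -0.60 to 0.11 for Col22a1 and -0.42 to 0.20 for Cilp. In flox females it ran from -0.56 to 0.58 for Tnmd, -0.75 to 0.67 for Fmod, -0.45 to 0.64 for Thbs4, -0.83 to 0.96 for Comp, -0.34 to 0.72 for Col12a1 and -0.86 to 0.16 for Mkx. In flox males Comp ran from -0.67 to 0.19. Between tamoxifen males, transgene minus flox, Thbs4 ran from -0.27 to 0.29, Mkx from -0.077 to 0.49, Fmod from -0.65 to 0.053 and Col12a1 from -0.14 to 0.35. The female difference ran from -0.34 to 1.08 for Fmod, -0.28 to 1.52 for Comp, -0.080 to 0.22 for Scx, -0.41 to 0.31 for Col22a1 and -0.14 to 1.57 for Tnmd. The averaged response ran from -0.14 to 0.041 for Col22a1 and -0.040 to 0.44 for Fmod.

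Sign switches under other settings also concerned changes that missed the threshold. With the tenocyte sum as a covariate, Thbs4 was -0.096 in transgene males and 0.082 between tamoxifen males, Scx was -0.062 between vehicle males, and the averaged response was -0.19 for Fmod, -0.010 for Thbs4 and -0.020 for Comp. With the slow-fibre sum, Tnmd was -0.21 and Mkx -0.082 between tamoxifen males. In limma-voom the female difference of Col22a1 was -0.063.

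Replicate numbers did not pair the flox females: deviations of same-numbered tamoxifen and vehicle libraries correlated at -0.20, -0.031 and -0.10 over 14539 genes. A replicate block gave 15 calls against 19 without it, and none of the 9 genes passed with or without it.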

Other observations

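Over the 4 strata, single markers of other cell types changed with tamoxifen, in a comparison where 8.83% of 16670 genes passed. The macrophage marker Cd68 fell by 0.64 ± 0.20 on the log2 scale (edgeR, adjusted p = 0.0446) and Kdr, the endothelial receptor for vascular endothelial growth factor, fell by 0.48 ± 0.15 (adjusted p = 0.0478). Cd68 and Kdr are each a single gene of a longer marker list, so they do not stand for their cell types. Numb fell by 0.19 ± 0.04 (adjusted p = 0.00761) and Numbl rose by 0.42 ± 0.08 (adjusted p = 0.00261) in the same averaged comparison, which joins mice with and without the recombinase.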
